A study of Mus musculus with 10 samples.

Results

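The cells described here are astrocytes of the mouse medial prefrontal cortex in which no transcript of Gfap, the gene of the intermediate filament protein used most often to mark astrocytes, was counted. They were chosen by their own transcript counts in single-cell RNA sequencing data from 10 libraries. A barcode (the tag that marks one droplet, taken as one cell) was kept with at least 500 genes detected and at most 15% of its UMIs (unique molecular identifiers, each counting one captured RNA molecule) on mitochondrial genes. A kept barcode was called an astrocyte when the UMIs of Gja1, Slc1a3, Aqp4, Ntsr2 and Aldoc summed to at least 6, with at least 1 from Gja1 or Ntsr2. The summed UMIs of Slc17a7, Gad1, Gad2, Cldn5, Mog, Pdgfra and Cx3cr1, which mark neurons, endothelium, oligodendrocytes, their precursors and microglia, could be at most 1. Of 6718 astrocyte barcodes, 6374 (94.9%) held no Gfap UMI and are called Gfap-null astrocytes below. They made up 13.1% of 48816 kept barcodes, out of 64937 deposited. The other 344 astrocyte barcodes are called Gfap-positive, and 69 of them held 2 or more Gfap UMIs.

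The study sequenced cells from socially dominant (rank 1) and subordinate (rank 4) mice, with 5 libraries per rank. All mice were male C57BL/6N, over 2 months old, with no genetic change named in the labels, and both ranks had been through the tube test of dominance, with tissue taken 1 day after the last one. Each library pooled punches from 2 to 3 mice, which were digested with papain at 37 °C for 60 min, spun through a gradient that removes debris and run on the 10x Genomics platform. Replicate numbers run from 1 to 5 in both ranks, and the labels do not say what a shared number means. A library is the replicate here. Without a block, p-values measure the spread between pools of mice. With a block, which is a term for each library or replicate number, they measure how differences within libraries or same-numbered pairs vary.

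Astrocytes clear glutamate and potassium from around synapses, feed neurons with lactate and lipids, and join each other through gap junctions. GFAP protein is abundant in astrocytes of white matter and of the pial surface and after injury, whereas many protoplasmic astrocytes of the cortical grey matter carry little of it at rest. Gene panels that do not use Gfap are therefore the usual way to find cortical astrocytes in single-cell data. The markers used by the rule encode the gap junction protein connexin 43 (Gja1), the glutamate transporter GLAST (Slc1a3), the water channel aquaporin 4 (Aqp4), a neurotensin receptor (Ntsr2) and the glycolytic enzyme aldolase C (Aldoc).

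Whole libraries held 4442750 to 29278466 UMIs, and the Gfap-null astrocytes of one library held 555479 to 2023367. The median UMIs per Gfap-null astrocyte ran from 1310.5 to 2943, the median number of genes from 857.5 to 1522, and the median mitochondrial share from 2.50% to 10.2%, the highest being rank 4 replicate 1. File headers name one software version for replicates 1 to 3 and a later one for replicates 4 and 5 of both ranks. No pair of libraries shared more than 1 of these barcodes. A doublet caller marked between 0.357% and 6.84% of the Gfap-null astrocytes of a library. They were kept, and leaving them out is one of the alternatives.

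The rule's limits cut through a continuous distribution. The marker sum was exactly 6 in 316 Gfap-null astrocytes, and 274 barcodes that met every other condition had a sum of 5. The excluded genes summed to 0 in 4287 members and to 1 in 2087, while 849 barcodes with a sum of 2 fell outside. Members with 1 excluded UMI formed 32.7% of all members, from 9.29% in rank 1 replicate 3 to 51.1% in rank 4 replicate 1. Of the Gfap-positive astrocytes, 275 held a single Gfap UMI, 39 held 2, 14 held 3, 3 held 4, 3 held 5 and 10 held 6 or more. A zero count of Gfap is thus mostly separated from the positive class by 1 UMI. In barcodes with at least 2 Slc17a7 UMIs, which are excitatory neurons and should lack Gfap, 0% to 2.28% per library held a Gfap UMI, at median depths of 1971 to 7427.5 UMIs. The mean level of Gfap in kept barcodes of neither astrocyte class was 2.86 CPM, the UMI count scaled to a fixed total per library (counts per 1e6 UMIs).

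The first question was how common Gfap-null astrocytes were in each rank. Their share of kept barcodes was 12.7%, 17.6%, 19.1%, 15.3% and 10.2% in rank 1 replicates 1 to 5. In rank 4 it was 14.0%, 22.8%, 28.3%, 9.72% and 9.07%. The ranks overlapped, and replicates 2 and 3 were high in both. The means were 14.97% ± 3.63 in rank 1 and 16.8% ± 8.45 in rank 4 (SD, n = 5 each), a difference of -1.80 percentage points with an exact permutation p of 0.675 (0.754 after adjustment over 8 such tests). The sign turned without rank 4 replicate 3, to 1.09 percentage points.

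Among astrocyte barcodes, 94.8%, 95.1%, 93.6%, 95.4% and 90.7% were Gfap-null in rank 1 replicates 1 to 5. In rank 4 they were 94.4%, 97.5%, 95.4%, 95.3% and 96.7%. Rank 1 replicate 5 was the lowest of the 10 libraries, with 82 Gfap-positive barcodes. The means of 93.9% ± 1.92 and 95.9% ± 1.25 (SD, n = 5 each) differed by -1.94 percentage points, with an exact permutation p of 0.0952 (0.476 adjusted over the 8 tests). Without rank 4 replicate 1 the difference was -2.31 with an exact permutation p of 0.0476, and without rank 1 replicate 5 it was -1.13 with an exact permutation p of 0.19. Because a deeper cell has more chances to show Gfap, each barcode was also thinned to 1000 UMIs, which left out 666 shallower astrocyte barcodes, 181 of rank 1 and 485 of rank 4. The share then ran from 93.9% to 98.7% per library, with means of 96.4% ± 1.64 and 97.6% ± 0.839 (SD, n = 5 each) and an exact permutation p of 0.183. That difference of -1.26 was -0.63 without rank 1 replicate 5, the library that moved both differences most. With 5 libraries against 5, the smallest two-sided p this test can give is 0.00794.

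**Figure D1:**
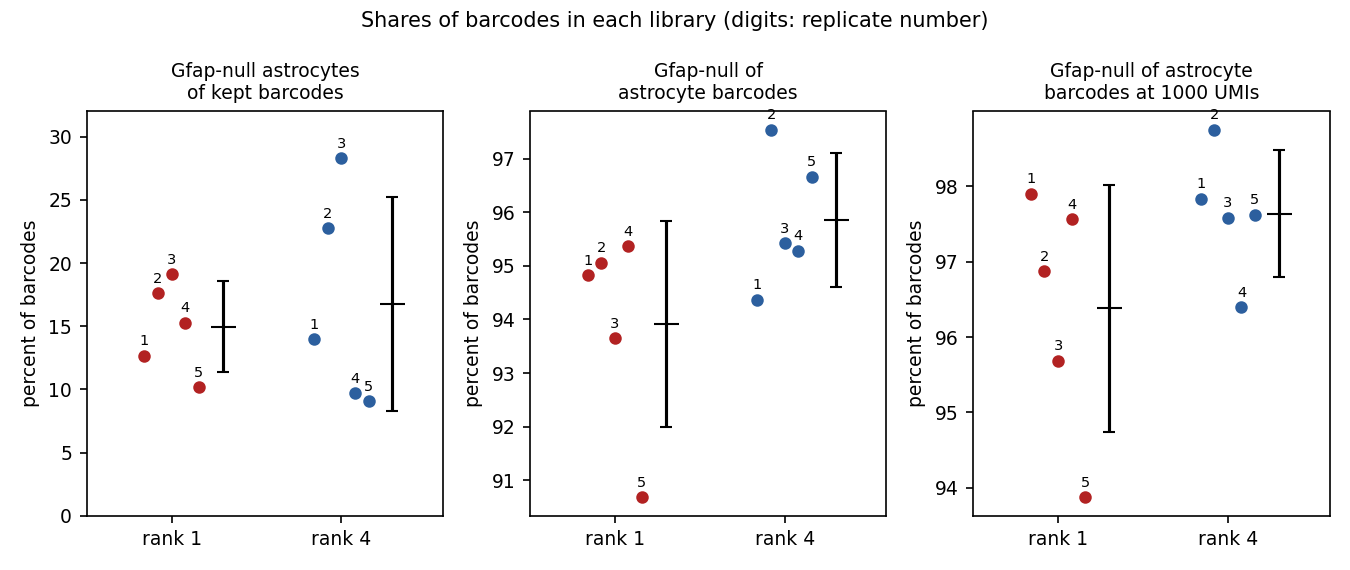
Shares per library in 3 panels: Gfap-null astrocytes as a percentage of kept barcodes, Gfap-null barcodes as a percentage of astrocyte barcodes, and the same at 1000 UMIs per barcode. Points are libraries labelled by replicate number and bars are the mean ± SD of 5 libraries. The ranks overlap in every panel, and rank 1 replicate 5 is lowest in the middle one, at 90.7%.

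The label was checked against genes the rule did not use. All 33 genes of an astrocyte list outside the rule had a higher level in Gfap-null astrocytes than in the rest in each of the 10 libraries. The rest, here and below, means kept barcodes of neither astrocyte class, so it leaves out the Gfap-positive astrocytes. Their summed level was 53380 to 85503 CPM in Gfap-null astrocytes and 4673 to 12463 CPM in the rest. This is a description, since such genes go together with the markers that chose the cells. Apoe, the main lipid carrier made by astrocytes, ran from 14937 to 28338 CPM, with a mean of 2107 CPM in the rest. Aldh1l1, a folate enzyme used as a pan-astrocyte marker, averaged 187 ± 40.3 CPM against 9.62 CPM in the rest. Slc39a12, a zinc transporter, averaged 286 ± 108 CPM against 11.8 CPM (SD, n = 10 libraries).

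Genes of glutamate and GABA handling were high in these cells, with 10 of 14 list members above the rest in every library. Slc6a11, the GABA transporter GAT3, averaged 430.3 ± 86.1 CPM against 36.6 CPM in the rest. Slc7a10, an exchanger of small neutral amino acids such as serine, averaged 559 ± 171 CPM against 26.5 CPM. Glud1, glutamate dehydrogenase, averaged 707 ± 165 CPM against 102 CPM.

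The ion and water buffering list had 15 of 16 members above the rest in every library. Kcnj10, the inward rectifier Kir4.1 that takes up potassium, averaged 142 ± 42.9 CPM against 24.6 CPM in the rest. Mlc1, a membrane protein of astrocyte endfeet, averaged 523 ± 178 CPM against 25.0 CPM. Gjb6, which encodes connexin 30, averaged 608 ± 275 CPM against 22.3 CPM.

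Of the lipid and cholesterol list, 23 of 25 members were above the rest in every library. Msmo1, a sterol oxidase of cholesterol synthesis, averaged 907 ± 237 CPM against 163 CPM in the rest. Srebf1, the transcription factor SREBP-1 that drives fatty acid synthesis, averaged 131 ± 26.4 CPM against 16.2 CPM. In the energy list the count was 11 of 17. Pygb, the brain glycogen phosphorylase, averaged 327 ± 90.4 CPM against 48.7 CPM, and Ppp1r3c, which targets a phosphatase to glycogen, 138 ± 47.6 CPM against 8.25 CPM. The lactate dehydrogenase subunits had opposite orders, with Ldhb at 1401 ± 693 CPM against 451 CPM and Ldha at 214 ± 81.8 CPM against 353 CPM.

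Transcription factors that mark the astrocyte lineage and the dorsal forebrain were detected in all libraries, and 22 of 24 members of that list were above the rest in each. Sox9, a factor of astrocyte identity, averaged 392 ± 69.7 CPM against 26.8 CPM in the rest. Lhx2 and Emx2, which pattern the cortex, averaged 286 ± 32.5 and 132 ± 40.9 CPM against 30.1 and 5.90 CPM. Mfge8, a secreted glycoprotein that is a marker of grey matter astrocytes, averaged 3088 ± 571 CPM against 200.4 CPM. Chrdl1, a secreted BMP antagonist of upper cortical astrocytes, averaged 88.0 ± 18.7 CPM against 4.72 CPM.

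Receptor genes were mixed, with 14 of 30 above the rest in every library. Fgfr3, a receptor for fibroblast growth factors, averaged 477 ± 99.8 CPM against 24.3 CPM in the rest. Grin2c, an NMDA receptor subunit, averaged 244 ± 91.0 CPM against 11.7 CPM, and Gabrg1, a GABA-A receptor subunit, 175 ± 33.9 CPM against 14.98 CPM. The metabotropic glutamate receptor genes had opposite orders. Grm3 averaged 188 ± 53.3 CPM against 35.1 CPM, whereas Grm5, the receptor of young astrocytes and of neurons, averaged 44.2 ± 30.4 CPM against 304 CPM. Gria2, the AMPA receptor subunit that blocks calcium entry, averaged 1009.5 ± 458 CPM, near the 1063 CPM of the rest.

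Among genes of secreted and synapse-directed proteins, 13 of 24 were above the rest in every library. The phagocytic receptor genes Mertk and Megf10, through which astrocytes engulf synapses, averaged 252 ± 109 and 55.1 ± 17.3 CPM against 28.1 and 5.72 CPM in the rest. Of 36 genes of a reactive astrocyte list, none was above the rest in every library, and 6 (C3, Cd109, Lcn2, Slc10a6, Tgm1 and Ugt1a1) were at 0 in Gfap-null astrocytes of all 10 libraries. Serpina3n, a protease inhibitor made by reactive astrocytes, ran from 5.94 to 10.9 CPM. Vim, the intermediate filament vimentin, ran from 33.1 to 94.9 CPM.

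Marker genes of other cells were counted in Gfap-null astrocytes too. The neuron, microglia, oligodendrocyte, precursor and endothelial lists each hold 1 or 2 of the genes that the rule limited, so their low sums are partly fixed by the choice of cells and are given as a description. The 9 excitatory neuron genes summed to 402 to 3787 CPM in Gfap-null astrocytes and to 7853 to 18774 CPM in the rest. The 9 microglia genes summed to 348 to 1004 CPM against 555 to 6030 CPM, and the 7 endothelial genes to 59.5 to 180 CPM against 993 to 3636 CPM. The 7 oligodendrocyte genes summed to 261 to 1549 CPM against 825 to 6528 CPM. Haemoglobin genes summed to 213 to 3674 CPM and reached 27164 CPM in the rest. The 4 fibroblast genes ran the other way, at 52.6 to 108 CPM against 14.8 to 34.3 CPM in the rest, with 2 of them above the rest in every library. Most of that sum was Col1a2, a collagen gene, at 59.4 CPM against 8.76 CPM. The 4 ependymal genes summed to 25.8 to 81.1 CPM against 7.90 to 52.2 CPM, almost all of it Rarres2, and the defining ependymal gene Foxj1 averaged 1.05 CPM.

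**Figure D2:**
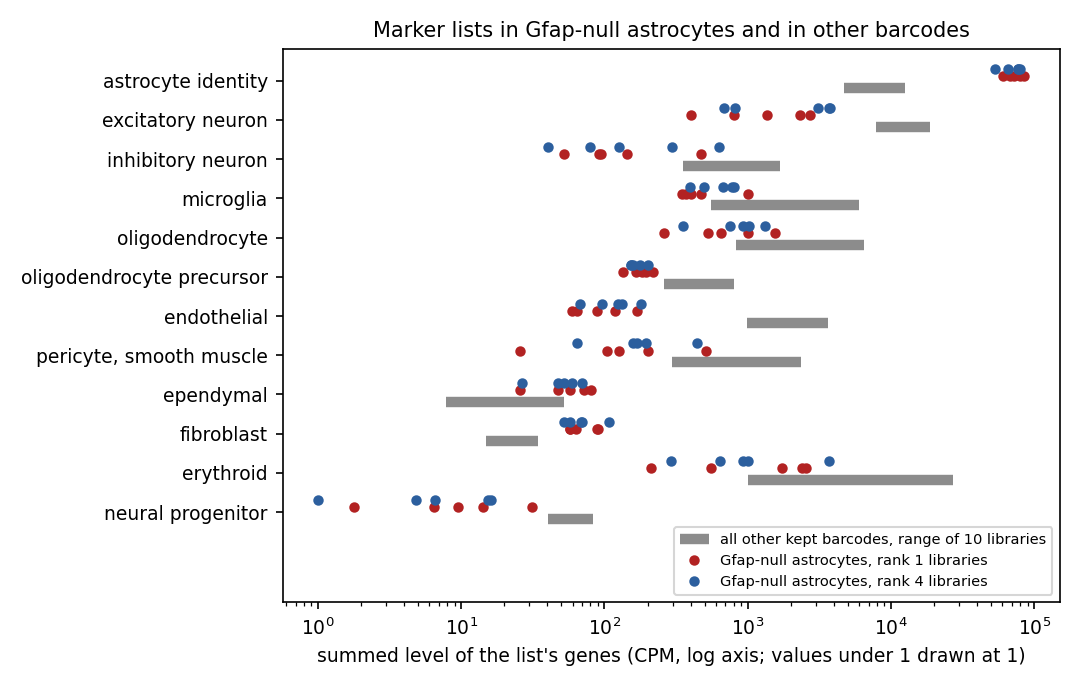
Summed level (CPM, log axis) of 12 marker lists in Gfap-null astrocytes of each library (red rank 1, blue rank 4). A grey bar gives the range over the 10 libraries in kept barcodes of neither astrocyte class. Sums under 1 are drawn at 1. The astrocyte list lies above its grey bar in all libraries, and the excitatory neuron and endothelial lists, which include genes the rule limited, lie below theirs. The fibroblast list lies above its bar.

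Levels of some canonical genes split the libraries by replicate number and not by rank. Aldoc was 4280.5, 13444, 13778, 2979 and 3225 CPM in rank 1 replicates 1 to 5. In rank 4 it was 3812, 13404, 12071, 3282 and 3708 CPM. Replicates 2 and 3 of both ranks were the 4 highest. The same 4 libraries were the highest for Glul, glutamine synthetase, at 3016, 7708, 8431, 2405 and 2115 CPM in rank 1 and 2558, 8137, 8055, 2134 and 2363 CPM in rank 4. Slc1a2, the glutamate transporter GLT-1, was high in other libraries, at 3106, 3312, 3193, 10071 and 7929 CPM in rank 1 and 2993, 3198, 3279, 8764 and 4659 CPM in rank 4. Replicates 4 and 5 were the highest in both ranks. Those libraries of replicates 4 and 5 were also high in Gm42418, a locus that overlaps ribosomal RNA, at 15893 to 32989 CPM against 114 to 596 CPM in replicates 1 to 3. Comparisons of ranks were therefore fitted with software version as a term, and again with the replicate number as a block.

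Within libraries, genes that varied among Gfap-null astrocytes by more than counting error fell into a few kinds. The measure was the squared coefficient of variation above the Poisson expectation, averaged over libraries, for genes of at least 100 CPM. Haemoglobin genes led, with Hba-a2 at 171, Hba-a1 at 153 and Hbb-bs at 137. The neuronal long noncoding RNAs Meg3 and Snhg11 were at 18.9 and 6.73. The immediate early genes Junb and Fos, which stimulation induces within minutes, were at 4.73 and 4.07. Spry2, a feedback inhibitor of growth factor signalling, was at 2.05, and the noncoding RNA Neat1 at 1.43. Id3, an inhibitor of basic helix-loop-helix factors, was at 1.92 and was among the 50 most variable genes in all 10 libraries. Igfbp2, which encodes a secreted binding protein of insulin-like growth factors, was at 1.76 and was among the 50 in 8 libraries.

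Gfap-null astrocytes were next compared with Gfap-positive ones in the same libraries. Vim, Fabp7, Id3, Cst3 and all 3 metallothionein genes were lower in Gfap-null astrocytes, and Igfbp2, Gria2, F3 and Malat1 were higher. The genes of the rule and Gfap itself were not tested. Counts were summed per class in the 6 libraries with at least 20 Gfap-positive barcodes, which were rank 1 replicates 1 and 5 and rank 4 replicates 1, 3, 4 and 5, holding 34, 82, 41, 51, 31 and 43 such barcodes. edgeR's quasi-likelihood test with library as a block called 48 of 9438 genes at an adjusted p of 0.05 (0.509%), 18 higher (0.191%) and 30 lower (0.318%) in Gfap-null astrocytes. With DESeq2's size factors the split was 11 higher and 42 lower. All log2 differences in this comparison are Gfap-null minus Gfap-positive with the standard error, and adjusted p-values are Benjamini-Hochberg.

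Vim and Fabp7 were among the genes lower in Gfap-null astrocytes. Vim (chromosome 2, 13573927 to 13582826, GRCm38) was 46.3, 76.3, 33.1, 37.2, 45.4 and 57.3 CPM in Gfap-null astrocytes of the 6 libraries in the order above. In Gfap-positive ones it was 125, 333, 92.4, 57.0, 148 and 71.5 CPM. The Gfap-null value was the lower one in 6 of 6 libraries, and the log2 difference was -1.50 ± 0.19 (adjusted p = 2.68e-11, edgeR). Fabp7, a fatty acid binding protein of radial glia and astrocytes (chromosome 10, 57784881 to 57788450), was 525, 217, 323, 871, 169 and 256 CPM in Gfap-null astrocytes. In Gfap-positive ones it was 1104, 299, 760.1, 1834, 403 and 400.5 CPM. It too was lower in 6 of 6 libraries, by a log2 difference of -0.94 ± 0.11 (adjusted p = 6.72e-13).

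Id3 (chromosome 4, 136143497 to 136145755) was 475, 355, 542, 510.5, 293 and 319 CPM in Gfap-null and 1018, 437, 824, 637, 445 and 601 CPM in Gfap-positive astrocytes. It was lower in 6 of 6 libraries, with a log2 difference of -0.60 ± 0.11 (adjusted p = 4.47e-05, edgeR). Cst3, the secreted protease inhibitor cystatin C, averaged 12076 ± 3225 and 16329 ± 2972 CPM in the classes (SD, n = 6 libraries). It was lower in 5 of 6 libraries, by -0.40 ± 0.07 on the log2 scale (adjusted p = 6.59e-06). Dbi, which encodes the acyl-CoA binding protein and endozepine precursor, averaged 2138 ± 1342 and 3082 ± 1557 CPM and differed by -0.53 ± 0.09 (adjusted p = 1.79e-06). Cpe, carboxypeptidase E, which processes peptide hormones, averaged 2078 ± 671 and 2921 ± 713 CPM and differed by -0.46 ± 0.09 (adjusted p = 4.47e-05). Dbi and Cpe were lower in 6 of 6 libraries.

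Other called genes of at least 50 CPM with one direction in all 6 libraries were Ifitm3, an interferon-induced membrane protein (-1.40 ± 0.25), and Ass1, argininosuccinate synthase (-1.08 ± 0.24). Slc38a1, a glutamine transporter (-0.81 ± 0.19), Fads1, a fatty acid desaturase (-0.53 ± 0.15), and Scd2, a stearoyl-CoA desaturase (-0.37 ± 0.10), were also lower. So were Fxyd1, a regulator of the sodium pump (-0.48 ± 0.12), and Tmem47 (-0.44 ± 0.12).

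Myoc and Thbs4 were counted rarely. Myoc, which marks astrocytes at the pial border, had 8 counts in all Gfap-null and 29 in all Gfap-positive barcodes of the 6 libraries, and 51.7% of the 29 came from a single barcode. Thbs4, a thrombospondin of a subset of astrocytes, had 32 and 33 counts, the latter from 2 libraries. The Myoc and Thbs4 calls (adjusted p = 5.07e-10 and 0.00038, edgeR) rest on few molecules from few cells.

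The metallothioneins bind zinc and copper and are strongly made by astrocytes. Their genes lie together on chromosome 8 of GRCm38, Mt3 at 94152607 to 94154146, Mt2 at 94172664 to 94173568 and Mt1 at 94179082 to 94180327, all on the plus strand. Their promoters are shown because all 3 genes were lower in Gfap-null astrocytes, and because zinc induces such genes through metal response elements bound by the factor MTF1. The 250 bases before each annotated start are from RefSeq's annotation of GRCm38.p6. Capitals mark the core of the metal response element, searched as TGCACNC or TGCGCNC on both strands, and the windows are chr8:94178839-94179088 for Mt1, chr8:94172368-94172617 for Mt2 and chr8:94152357-94152606 for Mt3.
Mt1: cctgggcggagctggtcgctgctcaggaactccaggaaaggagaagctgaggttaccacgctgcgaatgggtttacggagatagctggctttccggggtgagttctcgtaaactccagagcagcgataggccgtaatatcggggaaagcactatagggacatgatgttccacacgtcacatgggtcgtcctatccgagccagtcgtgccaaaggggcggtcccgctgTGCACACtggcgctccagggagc
Mt2: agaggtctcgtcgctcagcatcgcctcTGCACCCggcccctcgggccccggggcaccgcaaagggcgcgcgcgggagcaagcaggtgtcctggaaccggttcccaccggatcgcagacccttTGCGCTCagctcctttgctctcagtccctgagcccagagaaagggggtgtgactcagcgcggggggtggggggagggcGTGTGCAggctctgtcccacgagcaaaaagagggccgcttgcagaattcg
Mt3: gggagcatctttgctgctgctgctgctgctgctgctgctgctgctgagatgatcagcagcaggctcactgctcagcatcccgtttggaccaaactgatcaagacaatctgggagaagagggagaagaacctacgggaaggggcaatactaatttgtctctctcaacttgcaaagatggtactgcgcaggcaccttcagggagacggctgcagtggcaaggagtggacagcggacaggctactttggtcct
The core was found 1 time in the Mt1 window, 3 times in the Mt2 window and 0 times in the Mt3 window. The windows follow RefSeq starts, which differ for Mt1 and Mt2 from the GENCODE gene starts given above. The Mt1 window ends inside the GENCODE gene and the Mt2 window ends short of it. The counts therefore hold for these windows only. Of 32851 promoter windows of the same length, 21.4% held at least 1 core and 1.26% held 3 or more. A match is a run of letters and not a measured site.

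Mt1 was 5036, 3128, 6062, 7912, 3026 and 6312 CPM in Gfap-null and 7065, 4798, 8013, 7828, 3307 and 8296 CPM in Gfap-positive astrocytes. It was lower in 5 of 6 libraries, rank 4 replicate 3 being the exception, and the log2 difference was -0.29 ± 0.08 (adjusted p = 0.0412, edgeR). Mt2 was 1543, 567, 1946, 2089, 569 and 743 CPM against 2177, 873, 2721, 2090.1, 784 and 987 CPM, with a log2 difference of -0.36 ± 0.10 (adjusted p = 0.0341). Mt3, the brain form, was 3357, 2971, 3319, 4251, 2586 and 6898 CPM against 4738, 4718, 4589, 3990.1, 3074 and 9311 CPM, with a log2 difference of -0.33 ± 0.08 (adjusted p = 0.0147). The classes overlapped across libraries for all 3 genes, and the differences were within libraries. The sign stayed in all 19 alternative settings, but Mt1 and Mt2 passed the threshold in 4 of them each and Mt3 in 5. When the classes were matched in UMI total, the adjusted p-values were 0.0829 for Mt1, 0.0932 for Mt2 and 0.295 for Mt3.

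In the higher group, Igfbp2 (chromosome 1, 72824503 to 72852474) was 281, 108, 307, 292, 145 and 209.6 CPM in Gfap-null and 133, 63.2, 170.5, 142, 84.8 and 143 CPM in Gfap-positive astrocytes. It was higher in 6 of 6 libraries, with a log2 difference of 0.91 ± 0.17 (adjusted p = 3.19e-05, edgeR). Igfbp2 is known from grey matter astrocytes of the upper cortex. Pid1, a regulator of insulin signalling, averaged 102 ± 19.3 and 56.4 ± 17.2 CPM (SD, n = 6 libraries), with 36 counts in the Gfap-positive class. It differed by 0.97 ± 0.24 (adjusted p = 0.0138). It was higher in 6 of 6 libraries.

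Gria2 was 1403, 1222, 1369, 479.7, 1402 and 1029 CPM in Gfap-null and 963, 736, 1087, 342, 1059.9 and 758 CPM in Gfap-positive astrocytes. It was higher in 6 of 6 libraries, by 0.54 ± 0.10 on the log2 scale (adjusted p = 7.76e-05, edgeR). F3, tissue factor, which starts blood clotting and is typical of astrocytes in brain, averaged 707 ± 286 and 529 ± 229.7 CPM and differed by 0.48 ± 0.11 (adjusted p = 0.00728). Cadm1, a synaptic adhesion molecule, averaged 497 ± 133 and 372 ± 131 CPM and differed by 0.46 ± 0.12 (adjusted p = 0.0421). Malat1, a nuclear long noncoding RNA, was 83362 CPM in Gfap-null against 56484 CPM in Gfap-positive astrocytes of rank 1 replicate 5 and was higher in 6 of 6 libraries, by 0.37 ± 0.06 (adjusted p = 4.45e-08). F3 and Cadm1 were also higher in 6 of 6.

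The calls differed in how far they depended on single libraries. Vim, Fabp7, Ifitm3, Igfbp2, Gria2 and Malat1 were called whichever of the 6 libraries was left out. Of these, Fabp7 was also called within each rank alone. Vim was not called within rank 4 (adjusted p = 0.323), Igfbp2 and Malat1 were not within rank 1 (0.267 and 0.507), and Gria2 and Ifitm3 were not in either. Igfbp2 was not called in barcodes with no UMI of the excluded genes (0.18), nor Malat1 with at least 1000 genes (0.0632) or with the replicate block in place of the library block (0.626). DESeq2 called Fabp7, Gria2 and Malat1 and gave no adjusted p for Vim, Ifitm3 and Igfbp2. Without rank 1 replicate 1 the adjusted p-values (edgeR) were 0.225 for Id3, 0.144 for Cst3, 0.127 for Cpe, 0.0878 for Dbi, 0.144 for Ass1, 0.209 for Pid1 and 0.408 for Slc38a1. Without rank 4 replicate 1 they were 0.113 for Cst3, 0.104 for Cpe and 0.0922 for Pid1, and without rank 1 replicate 5 they were 0.198 for Ass1, 0.225 for Slc38a1 and 0.107 for F3. F3 was at 0.0632 without rank 4 replicate 3 and 0.087 without rank 4 replicate 5. Cadm1, Fads1, Fxyd1, Scd2, Tmem47 and the metallothioneins each lost their calls on leaving out any one of several libraries, among them rank 1 replicate 1. The direction of these genes stayed with each library left out.

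**Figure D3:**
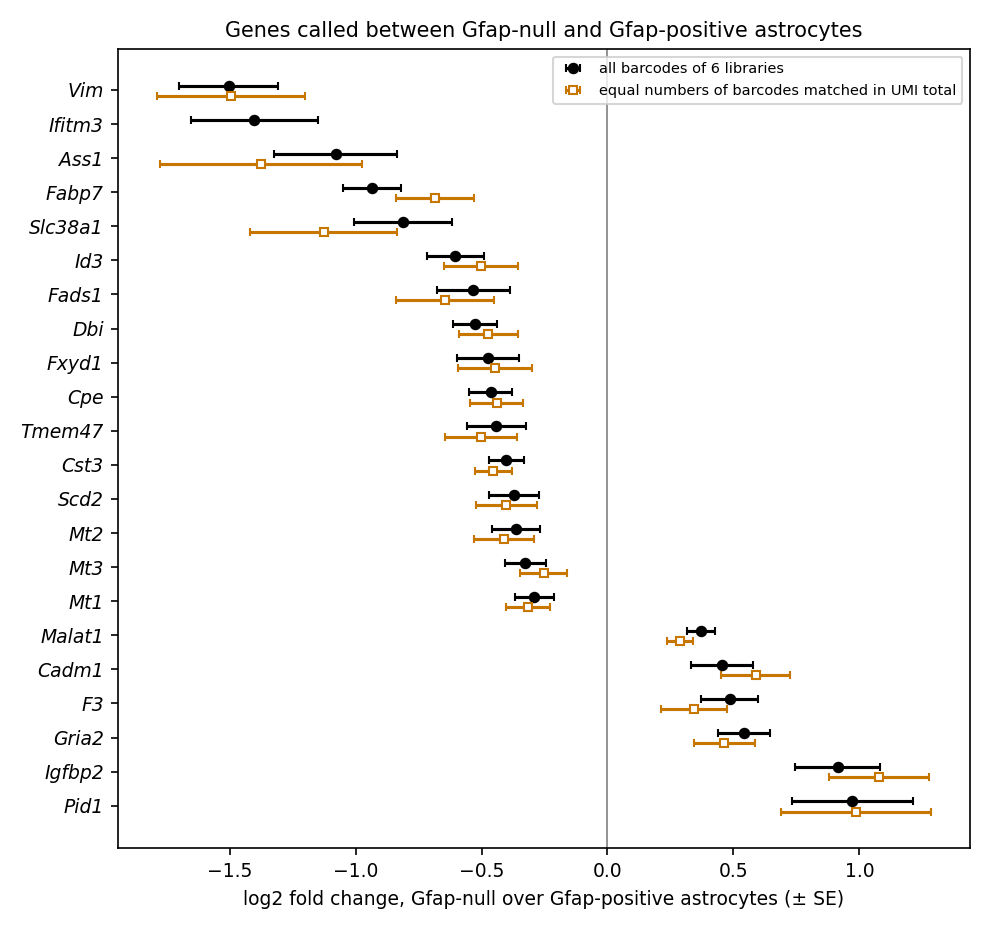
Log2 difference (Gfap-null minus Gfap-positive, ± SE) of named genes, in all barcodes of the 6 libraries (black) and after matching the classes in UMI total (orange squares, where tested). Vim lies at -1.50 and Igfbp2 at 0.91 with all barcodes, and the matched estimates of both lie on the same side of 0.

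**Figure D4:**
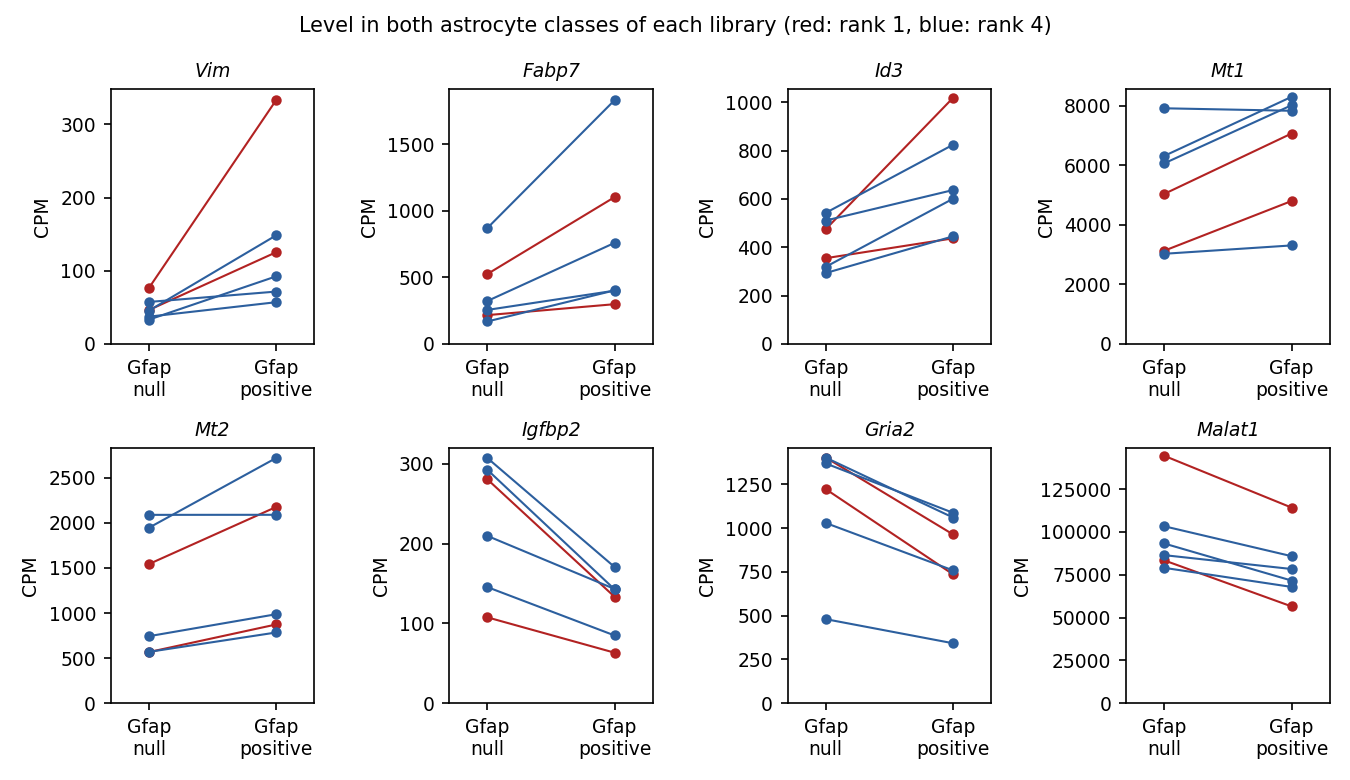
Level (CPM) of 8 genes in Gfap-null and Gfap-positive astrocytes, with one line per library (red rank 1, blue rank 4). Lines for Vim, Fabp7 and Id3 go up to the Gfap-positive class and those for Igfbp2, Gria2 and Malat1 go down in all 6 libraries.

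Gene groups are given beside the 0.509% called and the median log2 difference of 0.07 over all 9438 genes. Of these genes 5488 were positive and 3950 (41.9%) negative. The astrocyte list outside the rule had 33 genes tested, 1 higher (F3) and 3 lower (Cpe, Mt1 and Mt3), with a median of -0.02. No gene of 14 for glutamate and GABA handling, 16 for ion and water buffering or 16 for energy was called. The lipid list had 2 of 24 called lower, Fabp7 and Scd2, and 1 called higher. The receptor list had 1 of 29 called, Gria2, and 20 positive against 9 negative differences with a median of 0.17. The reactive list had 8 of its 36 genes tested, 1 called (Vim), 7 negative and a median of -0.26. Its summed level was 262 to 344 CPM in Gfap-null and 320 to 667 CPM in Gfap-positive astrocytes, higher in the latter in 6 of 6 libraries. Myoc and Thbs4 are left out of the list counts, for the few molecules described above. Of the regional list Igfbp2 was called higher and Fabp7 and Id3 lower. The secreted list had Cst3 called lower, and the transcription factor list 1 of 24, Id3. The immediate early list had 1 of 20 called lower, Fos (-0.71 ± 0.14, adjusted p = 0.000229, edgeR), whose level was nevertheless higher in Gfap-null astrocytes in 2 of 6 libraries. Without rank 1 replicate 5 Fos was at -0.19 (adjusted p = 0.933), and it was also not called within rank 4 (-0.24, 0.972), when matched in UMI total (0.0627) or with no UMI of the excluded genes (0.138). No gene was called among 12 glucocorticoid-response genes, 13 heat shock genes and 12 circadian genes.

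Depth and other-cell transcripts moved with the split. Gfap-positive astrocytes were deeper, with median UMIs of 4010, 2039, 3310, 1911, 1464 and 1447 against 2517, 1655, 2943, 1628, 1315.5 and 1310.5 in Gfap-null ones. When the classes were matched in UMI total, 38 of the 48 called genes could be tested, 37 had the same sign (Ptgds did not) and 13 were called again. Vim was then at -1.50 (adjusted p = 0.00167, edgeR), Fabp7 at -0.69 (0.0129), Cst3 at -0.45 (9.11e-05), Igfbp2 at 1.08 (0.000588) and Malat1 at 0.29 (0.000424), all called. Id3 at -0.50 (0.101), Gria2 at 0.46 (0.053) and F3 at 0.34 (0.317) were not. Of the microglia genes, 7 of 8 tested were positive, with a median of 0.52 and Ctss called (not when matched in UMI total, with a marker sum of at least 10 or within rank 1), and their sum was higher in Gfap-null astrocytes in 6 of 6 libraries. Of the excitatory neuron genes, 8 of 8 were positive, with a median of 0.33 and Meg3 called (not without rank 1 or rank 4 replicate 1), and their sum was higher in Gfap-null astrocytes in 4 of 6. Of all 9438 genes tested, 5488 were positive. Of the 30 genes called lower, 10 had a higher mean level in the rest than in Gfap-null astrocytes, among them Vim, Ifitm3 and Slc38a1. So had 7 of the 18 called higher, among them Gria2. Of all genes tested between ranks with the block, 57.7% had. The part of other cells' transcripts in these differences was not tested. Hba-a1, Hba-a2 and Npy were called lower, but 1 Gfap-positive barcode held 510 of 888, 380 of 678 and 80 of 129 of the class's counts.

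Whether the rank difference itself differed between the classes was tested as an interaction in the same 6 libraries, 2 of rank 1 and 4 of rank 4. edgeR called 3 of 9438 genes (0.0318%), Npy, Vtn and Sfrp1. Npy, a neuropeptide of interneurons, was 47.0 and 28.7 CPM in Gfap-positive astrocytes of the rank 1 libraries and 242, 779, 0 and 28.6 CPM in those of rank 4. Its 114 and 38.5 CPM against 251, 16.2, 36.1 and 97.9 CPM in Gfap-null astrocytes gave an interaction of 2.59 ± 0.44 (log2, adjusted p = 3.22e-05). Vtn, vitronectin, a pericyte gene, had 47 of its 106 Gfap-positive counts in 1 barcode and an interaction of 2.53 ± 0.49 (adjusted p = 0.00107). Sfrp1, a secreted Wnt antagonist, was 54.8 and 448 CPM in Gfap-positive astrocytes of rank 1 and 21.3, 28.5, 63.6 and 42.9 CPM in those of rank 4, with an interaction of -2.26 ± 0.44 (adjusted p = 0.00107). Npy was no longer called without rank 1 replicate 1 or rank 4 replicate 3, Vtn without rank 1 replicate 5 or rank 4 replicate 3, and Sfrp1 without rank 1 replicate 5. Without a rank 1 library that rank has 1, which is assumed to vary like the other libraries. Npy and Sfrp1 were also not called when the classes were matched in UMI total.

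The main comparison of the design was of dominant with subordinate mice, made here within Gfap-null astrocytes of all 10 libraries. With software version as a term, edgeR's quasi-likelihood test called 0 of 10550 genes (0%), while 256 had an unadjusted p under 0.05. DESeq2 also called 0, with 169 under 0.05. With the replicate number as a block, edgeR called 75 of 10915 genes (0.687%), 8 higher (0.0733%) and 67 lower (0.614%) in rank 1. Same-numbered libraries deviated together, and so did libraries of replicates 2 and 3, and of replicates 4 and 5, across the ranks. The libraries of replicate 1 correlated at 0.631 with each other and at 0.175 or less with those of other numbers. Of the 75 genes, 72 were tested in the first fit, all 72 had the same sign there and 28 had an unadjusted p under 0.05. The block result rests on single pairs, since it fell to 3 calls without replicate 1 and 8 without replicate 3 and was 130 without replicate 5. All log2 differences in this comparison are rank 1 minus rank 4, and those given with an adjusted p are from the block.

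Most genes called lower in rank 1 are more abundant in other cells. Of the 67, 61 had a higher mean level in the rest than in Gfap-null astrocytes, and 54 a level over 2 times as high, against 57.7% and 18.8% of all genes tested. None of the 8 higher genes had. Nrgn, the neuronal calmodulin-binding protein neurogranin, was 133, 30.6, 32.4, 193 and 423 CPM in rank 1 and 256, 35.6, 43.7, 464 and 658 CPM in rank 4. It was lower in rank 1 in 5 of 5 pairs, by -0.83 ± 0.15 on the log2 scale (adjusted p = 0.00233, edgeR). Slc17a7, which the rule limited, is 1 of the 67 and is left out of what follows. The other 8 excitatory neuron genes had 6 called lower, with a median of -0.74, and their sum was 2266, 771, 378, 1279 and 2541 CPM in rank 1 and 3617, 777, 652, 2852 and 3569 CPM in rank 4. Of the inhibitory neuron genes that the rule did not limit, 5 of 5 tested were negative, with a median of -0.55 and Npy called lower. Of such microglia genes, 6 of 8 were negative, with a median of -0.34, 4 with an unadjusted p under 0.05 and none called. Of the endothelial genes, 5 of 6 were negative (median -0.31, none called), and of the pericyte and smooth muscle genes 4 of 5 (median -0.45, Vtn called lower). All 4 haemoglobin genes were positive (median 0.17, none called). When only members with none of the excluded genes' UMIs were used, 25 genes were called. The part of other cells' transcripts in the other differences was not tested.

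Of the 67 genes, 6 were not more abundant in the rest, and they are named for that, after their values were seen. Tsc22d3, the glucocorticoid-induced leucine zipper gene (chromosome X, 140539528 to 140600659), was 167, 554, 532, 145 and 129 CPM in rank 1 and 331, 816, 733, 205 and 170.2 CPM in rank 4. The ranks overlapped because replicates 2 and 3 were high in both, but rank 1 was lower in 5 of 5 pairs, by -0.60 ± 0.13 (adjusted p = 0.0178, edgeR). Without the block the log2 difference was -0.55 ± 0.32, with an unadjusted p of 0.109. Usp2, a deubiquitinase with a daily rhythm, was 109.7, 75.6, 64.9, 139.9 and 153 CPM in rank 1 and 152, 178, 113, 228 and 168 CPM in rank 4, lower in 5 of 5 pairs (-0.62 ± 0.14, adjusted p = 0.0212). Usp53, a member of the same protein family, was 90.7 ± 33.1 against 139.8 ± 59.3 CPM (SD, n = 5), lower in 5 of 5 pairs (-0.60 ± 0.14, adjusted p = 0.0294). Atp5e, a subunit of ATP synthase (-0.51 ± 0.13), 9330159F19Rik (-0.55 ± 0.13) and Gm5617 (-0.98 ± 0.24) were the other 3.

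Arl4d, a small GTPase of the ARF family (chromosome 11, 101665541 to 101667832), was 7.16, 11.3, 12.6, 8.15 and 13.8 CPM in rank 1 and 24.7, 18.7, 21.0, 37.2 and 21.5 CPM in rank 4. The ranks did not overlap, on 6 to 50 counts per library. How many of all genes tested did not overlap was not counted, so nothing is read from this here or below. The mean was 10.6 ± 2.85 against 24.6 ± 7.37 CPM (SD, n = 5), and the log2 difference was -1.24 ± 0.26 (adjusted p = 0.0129, edgeR). With software version in place of the block it was -1.26 ± 0.27, with an unadjusted p of 0.00032 and an adjusted p of 1.00. Irs2, an adaptor of insulin receptor signalling, was 15.4, 14.5, 14.4, 39.4 and 54.5 CPM in rank 1 and 32.6, 30.5, 14.6, 94.2 and 79.4 CPM in rank 4. It was lower in 5 of 5 pairs, though by almost nothing in replicate 3, with a log2 difference of -0.86 ± 0.18 (adjusted p = 0.0178). Nr4a1 and Egr3, immediate early transcription factors, differed by -0.75 ± 0.17 and -1.06 ± 0.25 (adjusted p = 0.0294 and 0.035), each lower in 5 of 5 pairs. All 4 genes of this paragraph are among the 61 more abundant in the rest, at 22.0 CPM there for Arl4d, 41.6 for Irs2, 178 for Nr4a1 and 79.5 for Egr3.

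The 8 genes higher in rank 1 included Srebf1, which lies on chromosome 11 at 60199089 to 60222581. It was 137, 161, 168, 158 and 145 CPM in rank 1 and 99.9, 122, 110.1, 109 and 97.3 CPM in rank 4, without overlap. The mean was 154 ± 12.3 against 108 ± 9.79 CPM (SD, n = 5), and the log2 difference was 0.51 ± 0.13 (adjusted p = 0.0483, edgeR). Mmp14, a membrane metalloprotease, was 84.9, 96.6, 105, 125 and 77.8 CPM in rank 1 and 53.9, 72.9, 71.8, 79.1 and 54.3 CPM in rank 4, and it was higher in 5 of 5 pairs (0.56 ± 0.14, adjusted p = 0.0483). Inhba, which encodes the activin A subunit, was 24.8, 8.05, 23.4, 31.2 and 29.8 CPM in rank 1 and 8.41, 5.09, 10.3, 17.5 and 15.5 CPM in rank 4. It was higher in 5 of 5 pairs (1.09 ± 0.24, adjusted p = 0.0188), on 3 to 45 counts per library.

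Gm11713, a long noncoding gene on chromosome 11 at 107410390 to 107413549, was 109.7, 61.2, 82.9, 82.9 and 63.2 CPM in rank 1 and 51.0, 49.2, 47.5, 54.7 and 28.1 CPM in rank 4. The ranks did not overlap, and the log2 difference was 0.85 ± 0.15 (adjusted p = 0.00323, edgeR). It overlaps Pitpnc1, Inhba overlaps B230303A05Rik and Gm48444, and Srebf1 overlaps Rai1, Mir6921 and Mir6922. The sources used here do not say whether counting used strand, so reads of overlapping genes cannot be told apart. The others included Gm20342, Gm47423, which overlaps Ntrk2, and AY036118, which was up to 1537 CPM in the libraries of replicates 4 and 5. AY036118 overlaps Gm42418, the locus named above as high in those libraries. Its call held in 8 of 13 alternatives. It was lost without replicate 1 or 3, with DESeq2, with a mitochondrial limit of 10% and with no UMI of the excluded genes. Gm47423 was higher in rank 1 in 3 of 5 pairs.

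The remaining genes among the 10 smallest p-values of the fit with software version were B630019K06Rik (-1.27 ± 0.32), Naa60, an N-terminal acetyltransferase (-0.77 ± 0.20), and Ascc2, a subunit of an alkylation repair complex (-1.03 ± 0.28). Rrp8, a nucleolar methyltransferase (-0.67 ± 0.19), and Pard3b, a polarity protein (0.72 ± 0.21), completed the 10 with Arl4d, Irs2, Inhba, Gm11713 and Gm5617. All had one direction in 5 of 5 pairs and an adjusted p of 1.00 in that fit (edgeR).

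Without the pair of replicate 1 the block fit called Gm47423, Meg3 and Syt1, and none of the other genes named above. The adjusted p-values were then 0.277 for Arl4d, 0.169 for Gm11713, 0.123 for Nrgn, 0.268 for Tsc22d3, 0.24 for Srebf1 and for Irs2, and 0.291 for Inhba and for Mmp14 (edgeR). The log2 differences kept their direction, at -1.03 for Arl4d, 0.75 for Gm11713, -0.77 for Nrgn, -0.49 for Tsc22d3 and 0.53 for Srebf1. Gm11713 and Nrgn were called without each of the other 4 pairs. Arl4d and Irs2 were also not called without replicate 4, and Tsc22d3 and Nr4a1 without replicate 3. Meg3 was not called without replicate 3, Gm47423 without replicate 4, 9330159F19Rik without 3 or 4, Atp5e without 3, 4 or 5, and Gm5617 without any one of the 5 pairs. Inhba and Egr3 were not called without replicate 3 or 4, and Srebf1, Mmp14, Usp2 and Usp53 were called only without replicate 5. DESeq2 with the block called 10 of 10915 genes, among them Gm11713, Nrgn, Syt1, Meg3, Tsc22d3 and Atp5e. It did not call Gm47423 (adjusted p = 0.871), 9330159F19Rik (0.205), Srebf1 (0.26), Irs2 (0.295), Mmp14 (0.311), Nr4a1 (0.26), Usp2 (0.112) or Usp53 (0.205), and gave no adjusted p for Arl4d, Inhba, Egr3 and Gm5617. Over all alternatives that gave an adjusted p, the call held in 13 of 13 for Syt1, 12 of 13 for Gm11713, Nrgn and Meg3, 11 of 13 for Tsc22d3 and Gm47423, 10 of 13 for Irs2 and 8 of 12 for Arl4d. It held in 7 of 13 for Nr4a1, Usp2, Usp53 and Atp5e, 7 of 12 for Inhba and Egr3, 6 of 13 for 9330159F19Rik, 5 of 13 for Srebf1 and Mmp14, and 5 of 12 for Gm5617.

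**Figure D5:**
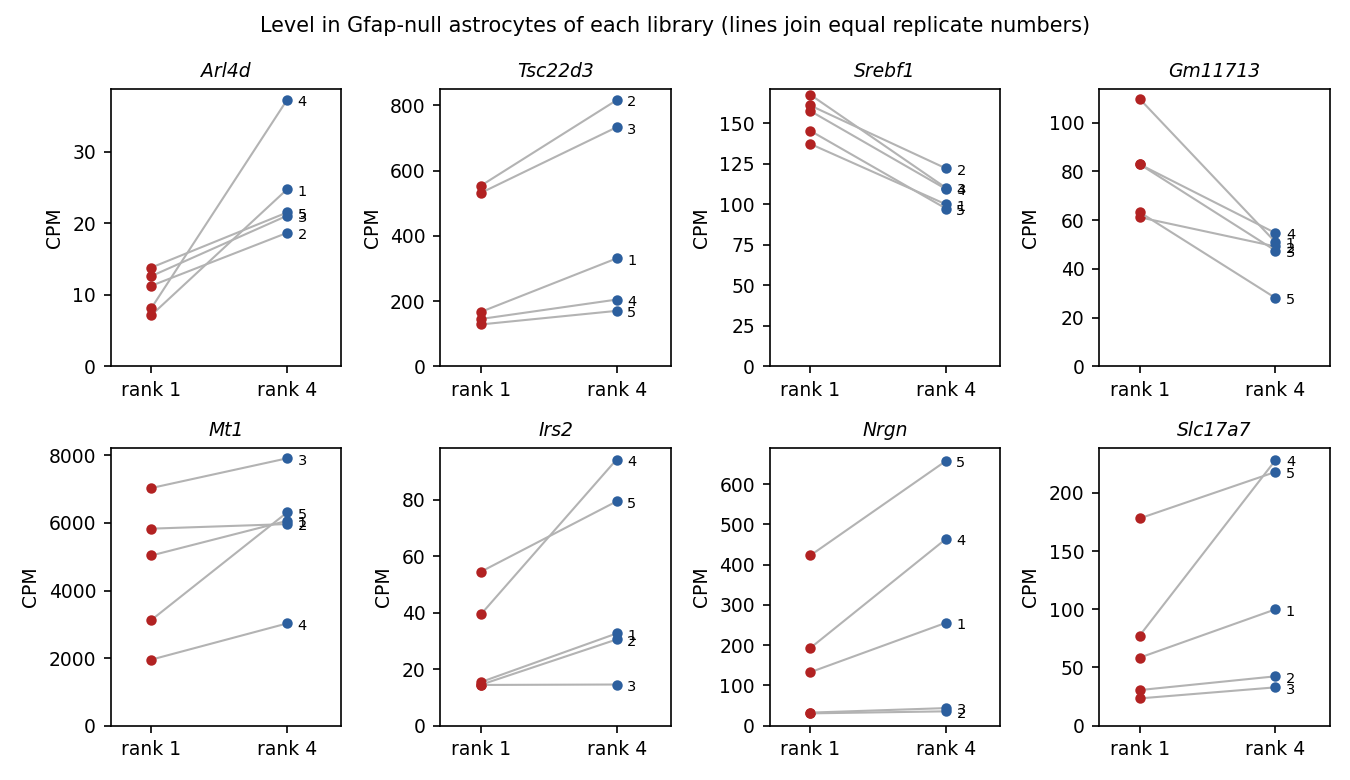
Level (CPM) of 8 genes in Gfap-null astrocytes of each rank 1 and rank 4 library, with lines joining libraries of the same replicate number. Arl4d, Srebf1 and Gm11713 do not overlap between ranks, and Tsc22d3 and Nrgn are lower in rank 1 along all 5 lines although the ranks overlap. How many of all genes do not overlap was not counted.

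Counts of called genes in lists of astrocyte function were near the 0.687% called over all genes, and nothing is read from them. In the block fit no gene was called among 33 of the astrocyte list, 14 of glutamate and GABA handling, 16 of ion and water buffering, 17 of energy, 21 of secreted and synapse proteins, 29 receptors, 24 transcription factors and 15 circadian genes. The medians of these lists in the fit with software version ran from -0.03 to 0.12, beside -0.02 over all genes. In that fit 13 of 16 ion and water genes and 23 of 33 of the astrocyte list were positive. The receptor and transcription factor sums were higher in rank 1 in 5 of 5 pairs. The lipid list had 1 of 24 called, Srebf1. Aqp4, one of the rule's markers, was 502, 393, 332, 820.4 and 613 CPM in rank 1 and 248, 361, 292, 605 and 444 CPM in rank 4. Of the rule's 5 markers, 4 were positive and 1 negative in the fit with software version. No test of them is given and no rank difference is read from them, since they helped choose the cells. Vim was 65.6 ± 21.8 against 43.4 ± 9.24 CPM (SD, n = 5), higher in 4 of 5 pairs and not called (0.53 ± 0.16, adjusted p = 0.104, edgeR).

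Lists of stress-responsive genes are given beside all genes, of which 52.9% were negative, and beside the excitatory neuron genes not limited by the rule, of which 8 of 8 were negative with a median of -0.68. With the block 0.614% of all genes were called lower. Of 15 glucocorticoid-response genes tested, 13 were negative with a median of -0.27 in the fit with software version, and 2 were called lower with the block, Tsc22d3 and Arl4d, the latter more abundant in the rest. Their sum was 1090, 1485, 1487, 1324 and 1236 CPM in rank 1 and 1350.0, 1818, 1731, 1580.1 and 1271 CPM in rank 4, lower in 5 of 5 pairs. Of 13 heat shock genes, all 13 were negative with a median of -0.25, and Dnajb1, a co-chaperone, was called lower with the block (-0.72 ± 0.17, adjusted p = 0.0314, edgeR). That call held in 5 of 13 alternatives and was lost without replicate 1 (adjusted p = 0.183), 3 (0.0838), 4 (0.146) or 5 (0.0586). The heat shock sum was lower in 4 of 5 pairs. Of 22 immediate early genes, 15 were negative with a median of -0.21, and their sum was lower in 3 of 5 pairs. With the block 2 of the 22 were called lower, Nr4a1 and Egr3, and 8 had an unadjusted p under 0.05, beside 1410 of all 10915 genes. No heat shock or immediate early gene was above the rest in every library, and the part of other cells' transcripts was not tested. The receptor for glucocorticoids, Nr3c1, was 160.5 ± 40.7 against 134 ± 37.7 CPM (SD, n = 5) and was not called (block adjusted p = 0.343).

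The metallothioneins, which differed between the Gfap classes, were not called by rank. Mt1 was 5036, 5830.4, 7033, 1954 and 3128 CPM in rank 1 and 6062, 5966, 7912, 3026 and 6312 CPM in rank 4, lower in 5 of 5 pairs (-0.43 ± 0.15 with the block, adjusted p = 0.17, edgeR). Mt2 was also lower in 5 of 5 pairs (-0.35 ± 0.13, adjusted p = 0.187), and Mt3 in 3 of 5 (-0.44 ± 0.16, adjusted p = 0.179). Replicate 4 of rank 1 was the lowest library for all 3 genes. Igfbp2 and Fabp7 were not called by rank either. Igfbp2 was 242 ± 76.8 against 256 ± 76.1 CPM and Fabp7 was 445 ± 198 against 450.1 ± 293 CPM (SD, n = 5).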

How the data were processed

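Single-cell RNA was measured in 10 libraries, 5 per rank. The authors deposited raw UMI counts as gene-by-barcode matrices, as the whole numbers in the files show. The submitters' processing notes name Cell Ranger 4.0.0 and mm10, whereas the file headers name version 3.1.0 for replicates 1 to 3 and 4.0.0 for replicates 4 and 5. The 30406 genes shared by both gene lists were used, which hold 99.4% to 99.9% of the UMIs. No barcode was removed as a doublet. Scrublet found no usable threshold in 1 library, where the median threshold of the others, 0.2345, was used for the alternative without doublets. Member counts were summed per library and tested with edgeR 4.0.16 (R 4.3.3), using TMM, filterByExpr, glmQLFit, glmQLFTest and Benjamini-Hochberg adjustment over all genes tested. CPM scale a gene's count by the summed UMIs of the same cells. DESeq2 1.42.0 was an alternative. Shares were compared by two-sided exact permutation tests with scipy 1.17.1.

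The labels do not say what a replicate number marks. Deviations from the rank means correlated between same-numbered libraries at 0.612 to 0.778 in all 5 pairs over 9812 genes, so the block with replicate number is given beside the rank result. Of differently numbered pairs, 4 correlated at 0.535 to 0.79, all between replicates 2 and 3 or between 4 and 5, and the others at 0.175 or less. The members, gene lists and tests were chosen with earlier results of these data known. Named genes were the 10 with the smallest p by rank, the 3 with the smallest interaction p, the called genes of at least 50 CPM with the largest fold and one direction in at least 9 in 10 libraries between Gfap classes, and the leading members of each list. Genes called with the block were named after their values were seen, as was Ptgds. On simulated data the rank test recovered 86% of genes changed by 1 on the log2 scale (10372 genes), the Gfap class test 65% (9467 genes) and the interaction 7% (9455 genes). Those data changed only genes above 50 CPM and gave all libraries the same mean and a fixed spread, without replicate or version effects. The real libraries differed by replicate number, so these rates do not say how often such changes would be found in them. Gene positions are from GENCODE M21, with 99.7% of gene IDs matched. A few named genes are not reported here.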

Additional observations from a re-analysis of the deposited data

Results flagged for a closer look

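Among 48 groups of 5 libraries examined for a library far from the others, 3 were marked, and 2.4 would be by chance. B630019K06Rik was 11.0 CPM in rank 1 replicate 1 and 4.07 to 5.41 CPM in the other rank 1 libraries. Egr3 was 37.8 CPM in rank 1 replicate 5 and 1.80 to 12.1 CPM in the others of that rank. Gm11713 was 28.1 CPM in rank 4 replicate 5 and 47.5 to 54.7 CPM in the others of that rank.

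The rank effect differed between Gfap-null and Gfap-positive astrocytes, by edgeR's interaction test, for Npy (2.59 on the log2 scale, adjusted p = 3.22e-05), Vtn (2.53, adjusted p = 0.00107) and Sfrp1 (-2.26, adjusted p = 0.00107). Much of the Npy and Vtn counts of the Gfap-positive class came from 1 barcode each, as given above. Npy and Sfrp1 were not called when the classes were matched in UMI total. Each call was lost when 1 named library was left out, but rank 1 had 2 libraries in that test, so that leaving out either leaves 1, whose spread is taken from the other libraries.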

How the results depend on the processing

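Exact permutation tests of the shares kept their side of the threshold except where named. The difference in member share of kept barcodes turned to 1.50 percentage points with at least 1000 genes and to 3.33 within replicates 4 and 5, and ran from -3.72 to 1.09 when 1 library was left out, being 1.09 without rank 4 replicate 3. The difference in Gfap-null share of astrocytes ran from -2.31 to -1.13 when 1 library was left out, and passed the threshold without rank 4 replicate 1. The rank comparison, 0 genes with software version as a term, called 11 without a low-count filter and 75 with the replicate block. The alternatives to the block fit were chosen after seeing the data: 25 genes were called in members with no UMI of the excluded genes, 20 with a mitochondrial limit of 10%, 46 without doublets, 10 with DESeq2 and 154 without a low-count filter. Leaving out 1 replicate number gave 3 to 130. The Gfap class comparison, 48 genes, called 19 in barcodes with no excluded UMI, 29 with the mitochondrial limit of 10%, 15 when matched in UMI total, 0 without the library block (122 with an unadjusted p under 0.05), 24 with the replicate block in place of the library block, 24 within rank 1 and 9 within rank 4. Leaving out 1 library gave 21 to 47, the lowest without rank 1 replicate 1, and 25 without rank 1 replicate 5. The interaction, 3 genes, called 9 when matched in UMI total and 4 to 9 when 1 library was left out, with 1 library in rank 1 in some of these. Ptgds changed sign when the classes were matched in UMI total. Other reversed genes were Hba-a1 (0.043) and Hba-a2 (0.070) with DESeq2, Npy within rank 1 (0.92) and without rank 4 replicate 3 (0.55, the highest of a range from -1.40 when 1 library was left out), and Sfrp1 within rank 4 (0.39). Apart from fewer genes tested where classes were matched and fewer libraries where some were left out, the cause was not tested. DESeq2 gave no adjusted p for 14 named genes of the Gfap class comparison and 21 of the block comparison, which are not counted as lost. A Gfap-positive class of 2 or more UMIs could not be fitted, since 1 library had at least 20 such barcodes. Depth limits the Gfap split and every gene of few counts named above.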
